A study of Mus musculus with 8 samples.

Results

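The expression shared by mouse fat lacking interleukin-6 (IL-6) trans-signalling was measured by setting 6 arrays, 3 IL6 KO and 3 sgp130Fc, against 2 Wild Type arrays, which together are all 8 arrays of the study. The members were taken by genotype label, with no measured value in the choice. IL6 KO mice (n = 3, 25 weeks old) lack the gene for IL-6. The sgp130Fc mice (n = 3, 26 weeks old) carry a transgene for soluble gp130 fused to an antibody Fc part, and the Wild Type mice (n = 2, 24 weeks old) carry neither change. The labels place every mouse on the C57Bl6 background, made it obese on a high-fat diet and fasted it for 5 h before adipose tissue was frozen. The fat depot, the sex, the promoter of the transgene and the substrain are not given in the sources used here. Each group has an age of its own, so age and genotype cannot be told apart. The replicates are not said to come from separate animals, so each p-value is set against the spread between these arrays alone, which may be technical.

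IL-6 reaches cells by 2 routes. In classic signalling it binds a membrane receptor, encoded by Il6ra, on cells such as hepatocytes and some leukocytes, and this complex recruits gp130, encoded by Il6st. In trans-signalling it binds a shed, soluble form of the receptor and acts on any cell with gp130, chiefly through the transcription factor STAT3. sgp130Fc traps the complex of IL-6 and soluble receptor and spares the classic route, whereas loss of Il6 ends both. In obese fat, IL-6 comes from fat cells, stromal cells and macrophages. The pooled comparison asks what the loss of trans-signalling, common to both genotypes, went with in this tissue.

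The deposited log2 values had a median of 5.04 on each array, and 12499 to 13378 of 25697 probes were above background. A total of 14141 probes for 9803 genes were detected on at least 2 arrays and were tested. IL6 KO replicate 2 stood apart from the other 7 arrays: its mean correlation with the rest was 0.944, against 0.964 to 0.973 for the others, and it scored 62.6 on the first principal component, where the others scored -27.3 to 23.7. Some of the list medians and genes on which it bore are given with and without it. Fat cell markers were among the bright probes, as the tissue label has it. Leptin (Lep) lay at 12.99 to 14.24 on the IL6 KO and sgp130Fc arrays and at 14.34 and 14.22 on the Wild Type arrays. The probe for Fabp4 was above background on 2 of 8 arrays only. In whole tissue, fewer cells of a type and less RNA in each such cell cannot be told apart.

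Only 5 probes passed the test of the pooled comparison (limma, Benjamini-Hochberg adjusted p under 0.05), 1 higher and 4 lower in the deficient fat, which is 0.0354% of the probes tested, 0.00707% higher and 0.0283% lower. They belong to Kansl1l, higher, and to Gdpd3, Gbp2b, Timmdc1 and Lsm12, lower. A further view counted probes at which all 6 deficient arrays lay outside the range of both Wild Type arrays, a description with no test. Leaving out an array can only keep or raise such a count. All 6 lay above at 977 probes (6.91%) and below at 1152 probes (8.15%). Without Wild Type replicate 1 these counts were 2732 and 2830, and without Wild Type replicate 2 they were 2482 and 2680. Taking the brightest probe of each gene, 714 genes (7.28%) had all 6 arrays above and 837 genes (8.54%) had all 6 below. These shares over all genes depend on the number of arrays: they were 20.5% above and 19% below without Wild Type replicate 1, and 17% above and 20.1% below without Wild Type replicate 2. Without sgp130Fc replicate 2 the shares were 8.98% above and 10.1% below. The counts of list members given with 1 of these arrays left out are read against the shares for that array.

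Both of the genes with the largest called differences have a start site in the RefSeq table of GRCm38.p6. Their promoters, 250 bases before to 50 after the start, are printed to show whether letters bound by STAT factors or by interferon-regulated factors lie there. The windows were searched on both strands for the STAT letters TTCNNNGAA and for the interferon element GAAANNGAAA, which do not overlap in them. The first is Gdpd3 at chr7:126766164-126766463 on the plus strand and the second Gbp2b at chr3:142594597-142594896 on the plus strand, where capitals mark the interferon element, read on the other strand.
Gdpd3: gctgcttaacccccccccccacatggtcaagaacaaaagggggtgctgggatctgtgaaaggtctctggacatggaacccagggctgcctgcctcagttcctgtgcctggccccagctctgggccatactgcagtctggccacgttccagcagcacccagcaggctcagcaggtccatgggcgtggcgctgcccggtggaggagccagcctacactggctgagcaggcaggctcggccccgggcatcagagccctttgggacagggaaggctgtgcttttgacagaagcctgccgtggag
Gbp2b: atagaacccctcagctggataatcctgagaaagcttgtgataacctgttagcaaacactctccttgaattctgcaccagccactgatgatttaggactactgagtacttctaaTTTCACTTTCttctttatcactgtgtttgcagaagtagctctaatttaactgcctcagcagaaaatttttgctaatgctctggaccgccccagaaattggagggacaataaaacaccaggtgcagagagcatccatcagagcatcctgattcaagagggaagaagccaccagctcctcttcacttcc
The Gbp2b element begins at position -137, counted from the start site. Over all 32851 windows of this length, 3.44% held these interferon letters and 8.30% held the STAT letters. Neither motif was in the windows of Gdpd3, Timmdc1 or Kansl1l, and Gbp2b held no STAT letters. Lsm12 is named only.

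Gdpd3 encodes a lysophospholipase D, which releases lysophosphatidic acid and related lipids from lysophospholipids. It lies at chr7:126766414-126775645 and had 1 tested probe (ILMN_2893879). Its log2 intensity was 6.81, 7.12 and 6.97 on the IL6 KO arrays, 6.70, 6.67 and 7.04 on the sgp130Fc arrays, and 10.51 and 10.83 on the Wild Type arrays. Every deficient array lay at least 3.40 below the lower Wild Type array, and the ranges of the genotypes overlapped. Gdpd3 fell 13.8-fold, a log2 difference of -3.79 ± 0.17 (SE; limma adjusted p = 3.07e-05). It averaged 6.89 ± 0.18 in deficient fat (SD, n = 6) and 10.67 ± 0.23 in Wild Type fat (n = 2). It passed under 20 of 20 other settings, with an adjusted p of at most 0.0012. The sgp130Fc minus IL6 KO difference was -0.16 (limma adjusted p = 0.656).

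Gbp2b encodes an interferon-inducible guanylate-binding protein, a large GTPase of defence against intracellular microbes, and lies at chr3:142594816-142619179. Its level was 4.60, 4.55 and 4.68 on the IL6 KO arrays, 4.42, 4.41 and 5.12 on the sgp130Fc arrays, and 10.48 and 8.15 on the Wild Type arrays. It was above background on 1 of 6 deficient arrays and on both Wild Type arrays, which themselves stood 2.33 apart. Gbp2b met the filter of at least 2 arrays only with its Wild Type arrays, so its direction was set by the filter. Gbp2b fell by 4.68 ± 0.48 on the log2 scale (limma adjusted p = 0.0207). The call was lost without IL6 KO replicate 3 (limma adjusted p = 0.0795) and without sgp130Fc replicate 1 (0.0879), 2 (0.0622) or 3 (0.051). Gbp2b shares sequence with related guanylate-binding genes, so the signal cannot be given to 1 copy with certainty.

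Other genes of the interferon response were measured beside Gbp2b. Of 23 measured genes for interferon response and guanylate-binding proteins, 1 passed lower and 0 higher, all 6 deficient arrays lay below both Wild Type arrays at 2 (8.7%, against 8.54% of all genes) and above at 0, and the median log2 difference was -0.01, as it was over all genes. In that list 7 lay above and 2 below without Wild Type replicate 1, with a median of 0.25, and without Wild Type replicate 2, 0 lay above and 8 below with a median of -0.32. The other member below was Iigp1, an interferon-inducible GTPase, which was above background on both Wild Type arrays and on 0 of 6 deficient arrays. Iigp1 was at least 1.05-fold lower and did not pass (limma adjusted p = 0.499). It was tested through its Wild Type arrays alone, and Gbp2b met the filter only with them. The place of both genes among the 2 was thus set by the filter. Psmb9, an immunoproteasome subunit, differed by -0.35 and the antiviral gene Oasl2 by 0.65, and neither passed (limma adjusted p = 0.587 and 0.529).

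Timmdc1 encodes an assembly factor of mitochondrial complex I and lies at chr16:38497843-38522778. It measured 6.64, 6.88 and 7.06 on IL6 KO arrays, 6.93, 7.30 and 7.29 on sgp130Fc arrays, and 8.77 and 9.14 on Wild Type arrays. The gap between the arms was 1.46, wider than the range of all 6 deficient arrays. Timmdc1 fell 3.83-fold, by 1.94 ± 0.21 on the log2 scale (limma adjusted p = 0.0207). The call was lost without Wild Type replicate 2 (limma adjusted p = 0.202), IL6 KO replicate 3 (0.0808) or sgp130Fc replicate 1 (0.0889), 2 (0.0544) or 3 (0.051).

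The list for mitochondrial respiration, subunits and assembly factors of the electron transport chain, includes Timmdc1. Of 23 in the list, 18 had a negative difference, all 6 deficient arrays lay below at 6 (26.1%, against 8.54% of all genes) and above at 0, and the median was -0.22. The count below was 12 without Wild Type replicate 2 and 9 without sgp130Fc replicate 2, and the median was -0.12 without Wild Type replicate 1. Cox7a1, a cytochrome oxidase subunit of heart, muscle and brown fat, differed by -1.0, and the complex I subunits Ndufv1 and Ndufb5 by -0.34 and -0.26. None of these passed, with limma adjusted p-values of 0.499, 0.554 and 0.554.

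Kansl1l, a gene related to the chromatin complex subunit Kansl1, lies at chr1:66719243-66817596 and was the only gene that passed in the higher direction. Its level was 6.24, 6.55 and 6.60 on IL6 KO arrays, 6.64, 6.79 and 7.00 on sgp130Fc arrays, and 5.13 and 5.04 on Wild Type arrays. All 6 deficient arrays were above background and 1 of 2 Wild Type arrays was. Kansl1l rose 2.93-fold, by 1.55 ± 0.19 (limma adjusted p = 0.0488). It kept its call without IL6 KO replicate 1 (limma adjusted p = 0.0433) and lost it without Wild Type replicate 1 (0.146) or 2 (0.315), IL6 KO replicate 2 (0.087) or 3 (0.142), or sgp130Fc replicate 1 (0.181), 2 (0.167) or 3 (0.0611).

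Lsm12, an RNA-binding protein of the LSm family at chr11:102162497-102186268, rested on 1 of its 4 tested probes. That probe, ILMN_2496121, gave 5.81, 5.87 and 6.23 in IL6 KO, 6.18, 6.16 and 5.39 in sgp130Fc, and 8.33 and 7.67 in Wild Type fat. The probe fell by 2.05 ± 0.26 on the log2 scale (limma adjusted p = 0.0488). Leaving out any array ended the call: the adjusted p was 0.175 and 0.118 without Wild Type replicates 1 and 2, 0.131, 0.0931 and 0.0885 without IL6 KO replicates 1, 2 and 3, and 0.135, 0.149 and 0.0569 without sgp130Fc replicates 1, 2 and 3. The other 3 Lsm12 probes differed by -0.70, -0.48 and -0.25 and did not pass.

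**Figure D1:**
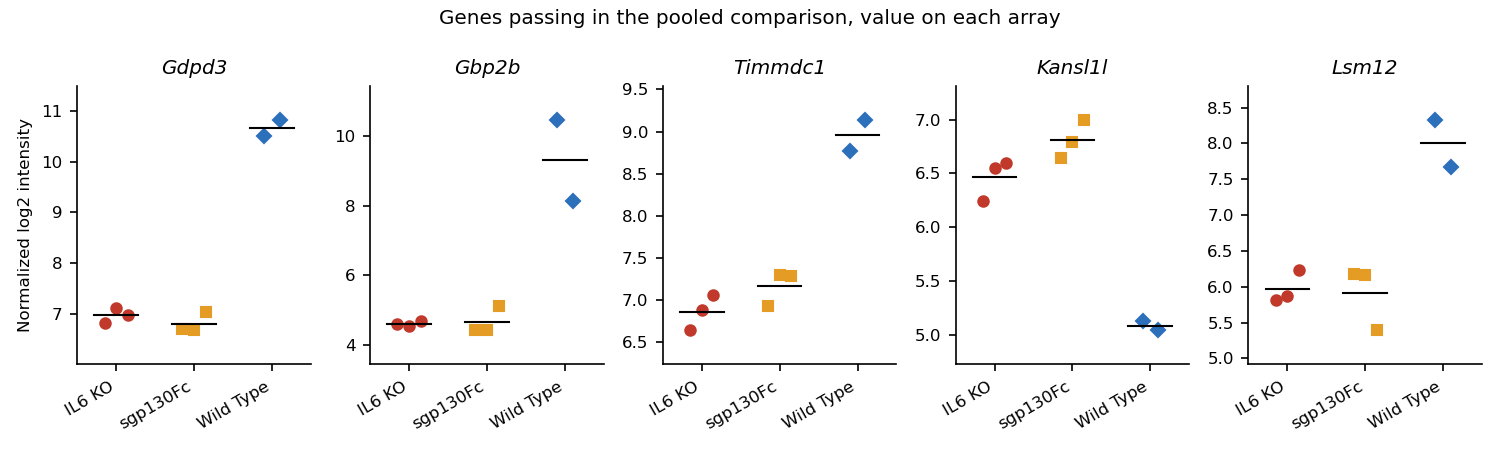
Normalized log2 intensity (vertical axis) of the 5 genes that passed, on each IL6 KO array (red circles), sgp130Fc array (orange squares) and Wild Type array (blue diamonds), with a black line at each group's mean. Gdpd3, Gbp2b, Timmdc1 and Lsm12 lay below both Wild Type arrays on all 6 deficient arrays and Kansl1l above, and the Wild Type points of Gbp2b were 2.33 apart.

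A gap of at least 1 log2 unit between the nearest arrays of the arms was seen at 13 probes, 3 above and 10 below, a set chosen after its values were seen. Besides the 5 called genes it held Itgad and Cd300ld above and Ccl21a, Ccl21b, Ccl21c, Reln, Cd163l1 and Retn below. The 14 genes that filled the higher set and the 11 that filled the lower set by smallest p did not pass, with limma adjusted p-values of 0.200 to 0.370 and 0.199 to 0.324. Neither these genes nor the 5 called ones passed the test between sgp130Fc and IL6 KO (limma adjusted p of at least 0.237), which does not show that the genotypes were alike at them.

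Itgad encodes the alpha-D chain of a leukocyte integrin that is found on tissue macrophages. The Itgad probe with the gap of at least 1 log2 unit, ILMN_3092056, differed by 3.11 (limma adjusted p = 0.200). Another probe, ILMN_1237406, is described here. That probe measured 9.17, 7.96 and 9.20 in IL6 KO, 9.99, 9.53 and 9.73 in sgp130Fc, and 5.51 and 6.96 in Wild Type fat. Its log2 difference was 3.03 ± 0.52 (limma adjusted p = 0.200). IL6 KO replicate 2 was the lowest of the 6, and without it ILMN_1237406 passed, with a difference of 3.29 (limma adjusted p = 0.0407). Cd300ld, an activating receptor of myeloid cells, measured 9.26, 10.71 and 9.09 in IL6 KO, 8.4, 8.41 and 8.27 in sgp130Fc, and 6.74 and 4.79 in Wild Type fat, where it was above background on 1 of 2 arrays. Its difference was 3.26 ± 0.67 (limma adjusted p = 0.352).

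Ms4a7, a membrane protein of macrophages, lay at 8.28 to 8.97 (median 8.49) in deficient fat and at 7.28 and 7.58 in Wild Type fat. Rgs1, which dampens G-protein signalling in leukocytes, lay at 9.94 to 10.87 (median 10.46), against 9.29 and 9.42. Gna13, an alpha subunit of heterotrimeric G proteins, and Htr2b, a serotonin receptor, differed by 0.87 and 1.00. The matrix protein thrombospondin 2 (Thbs2) lay at 9.88 to 10.57 (median 10.16) in deficient fat and at 9.20 and 9.32 in Wild Type fat. Robo1, a receptor of Slit guidance cues, differed by 0.83, the Ras GTPase-activating protein Rasa1 by 0.74 and the polysialyltransferase St8sia4 by 0.98. Kng2, a kininogen, differed by 1.07, Shtn1 by 1.04, Cttnbp2nl by 0.96 and Dppa3, a factor of early embryos and germ cells, by 0.75. Each of these had all 6 deficient arrays above both Wild Type arrays and none passed.

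Among the lower genes that did not pass, the chemokine genes Ccl21a, Ccl21b and Ccl21c, whose product draws T cells and dendritic cells with the receptor CCR7, had the widest differences. Ccl21a measured 8.11, 6.35 and 7.25 in IL6 KO, 5.25, 5.78 and 7.33 in sgp130Fc, and 11.46 and 9.95 in Wild Type fat. The arms were 1.84 apart, and each arm spread over more than 1 log2 unit. The log2 difference was -4.03 ± 0.71 (limma adjusted p = 0.213). Ccl21b and Ccl21c, near-identical copies that the probes may not tell apart, differed by -3.68 and -4.17.

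Reln, a secreted glycoprotein that lymphatic endothelium makes, measured 5.41, 4.98 and 5.52 in IL6 KO, 4.62, 4.74 and 5.74 in sgp130Fc, and 8.72 and 7.13 in Wild Type fat. It was above background on 3 of 6 deficient arrays, and its difference was -2.76 ± 0.42 (limma adjusted p = 0.199). Some markers of lymphoid tissue were highest on Wild Type replicate 1. The T-cell marker Cd3e lay at 5.05 to 6.46 (median 5.51) in deficient fat, and its lower and higher Wild Type values were 5.91 and 7.35. The lymphatic marker Lyve1 lay at 6.15 to 9.40 (median 8.49), against lower and higher Wild Type values of 8.90 and 9.56. The mean level of 14 T-cell genes was 5.71 to 6.86 on the deficient arrays, 7.36 on Wild Type replicate 1 and 6.13 on replicate 2. Their median difference was -0.73, with 1 gene above and 0 below on all 6 arrays. The median was 0.10 without Wild Type replicate 1, with 3 above and 0 below, and -1.13 without Wild Type replicate 2, with 1 above and 8 below. Over 6 lymphatic endothelial genes the mean level was 6.56 to 7.34, against 8.61 and 7.85, and over 6 genes of lymph node stroma 5.59 to 6.46, against 7.22 and 6.62. The medians of these lists, -0.72 and -0.61, were -0.46 and -0.23 without Wild Type replicate 1. The B-cell marker Cd79a and the lymphatic factor Prox1 were above background on 0 of 8 arrays. The part of lymphoid tissue in the Ccl21 and Reln differences was not tested.

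Cd163l1, a scavenger receptor of gamma-delta T cells in mice, lay at 5.05 to 6.21 (median 5.97) in deficient fat and at 8.24 and 7.42 in Wild Type fat. Nr1d1, which encodes the clock repressor REV-ERB alpha, measured 5.81, 6.16 and 5.59 in IL6 KO, 5.67, 5.97 and 5.97 in sgp130Fc, and 6.84 and 6.99 in Wild Type fat. The log2 difference of Nr1d1 was -1.06 ± 0.18 (limma adjusted p = 0.200), and a second probe gave -1.02. Id1, an inhibitor of helix-loop-helix transcription factors, lay at 7.77 to 8.60 (median 8.04), against 9.07 and 9.38, a difference of -1.11. Fn3krp, a kinase that acts on glycated proteins, was above background on 0 of 6 deficient arrays and was at least 1.30-fold lower. It was tested through its Wild Type arrays alone, so its direction was set by the filter. Ripk4, a kinase of epidermal differentiation, was above background on 1 of 6 deficient arrays and differed by -1.06. Ripk4 met the filter only with its Wild Type arrays, so its direction too was set by the filter. Gm525 differed by -1.67. None of these passed.

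**Figure D2:**
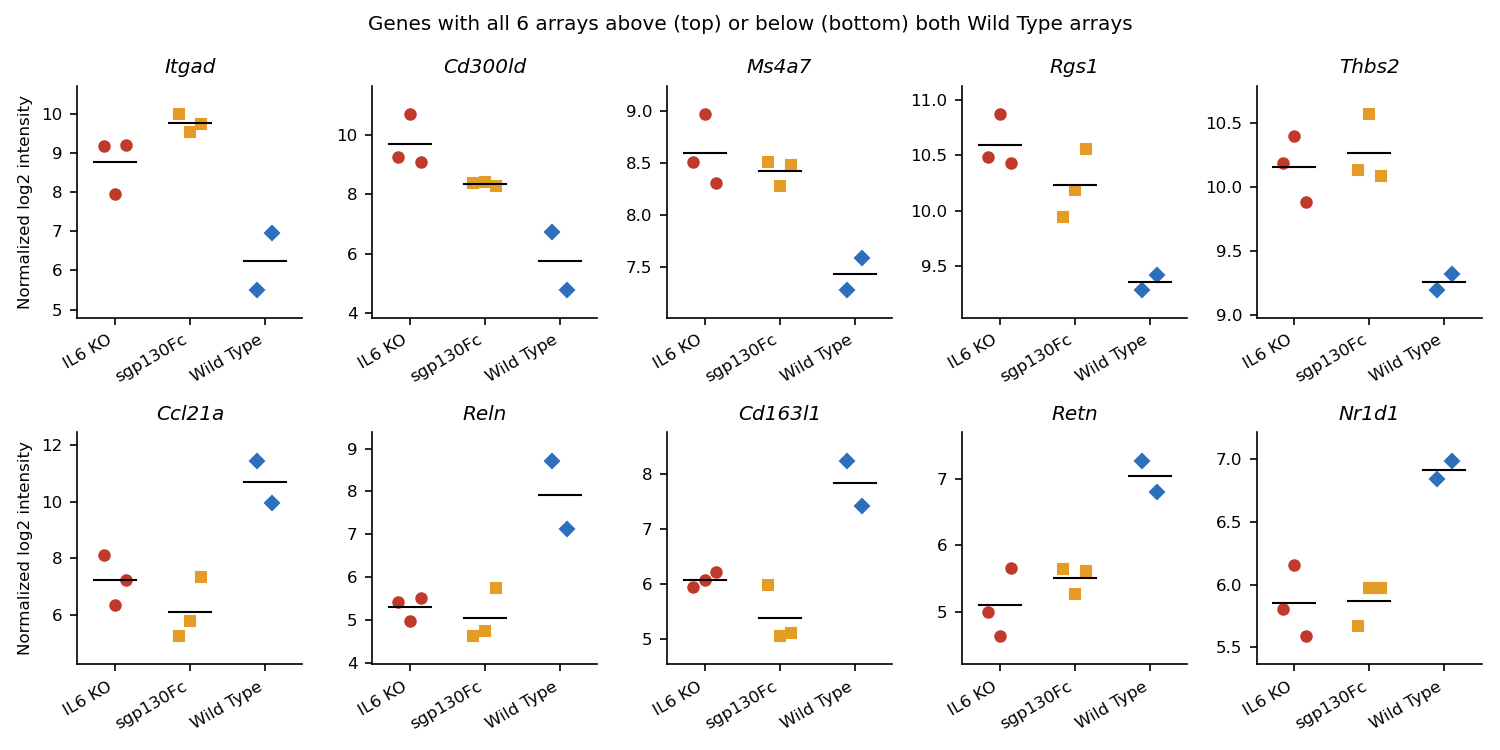
Normalized log2 intensity (vertical axis) on each IL6 KO (red circles), sgp130Fc (orange squares) and Wild Type array (blue diamonds), with a line at each group's mean, for 5 genes with all 6 deficient arrays above both Wild Type arrays (top) and 5 with all 6 below (bottom). Itgad, Cd300ld, Ccl21a and Reln had the widest differences and also Wild Type arrays 1.45 or more apart, while the Nr1d1 arrays lay closer together in each arm.

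The lists of genes for cell types and pathways were read against the same shares. Of 18 measured macrophage genes, all 6 deficient arrays lay above both Wild Type arrays at 15 and below at 0, against 7.28% and 8.54% of all genes. None passed. The median log2 difference was 0.71, beside -0.01 over all genes, and it was 0.90 in IL6 KO and 0.39 in sgp130Fc, each against the same Wild Type arrays. The mean level of the list was 10.18, 10.62 and 9.99 on IL6 KO arrays, 9.66, 9.65 and 9.96 on sgp130Fc arrays, and 9.32 and 9.36 on Wild Type arrays. Without IL6 KO replicate 2, the highest array, the median was 0.63.

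Adgre1, which encodes a widely used surface marker of mouse macrophages, measured 12.14, 12.34 and 12.01 in IL6 KO, 11.83, 11.76 and 12.29 in sgp130Fc, and 11.23 and 11.27 in Wild Type fat. The difference was 0.81 ± 0.19 (limma adjusted p = 0.457). Cd14, the lipopolysaccharide co-receptor, differed by 0.65, the Fc receptor Fcgr3 by 0.85 and the leukocyte tetraspanin Cd53 by 0.78. Itgam, the alpha chain of the complement receptor CR3, was above background on 4 of 6 deficient arrays and on 0 of 2 Wild Type arrays, at least 1.69-fold higher. It was tested through its deficient arrays alone, so its place among the 15 was set by the filter. Chosen after its values were seen, Spi1, which encodes the myeloid transcription factor PU.1, measured 8.13, 8.06 and 7.46 in IL6 KO, 6.79, 6.77 and 7.17 in sgp130Fc, and 6.58 and 6.60 in Wild Type fat.

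The lists for macrophage states were described in the same way. Of 20 genes of lipid-associated macrophages, the cells that surround dying fat cells in obesity, 19 had a positive difference, all 6 deficient arrays lay above at 5 and the median was 0.59. That count was 12 without Wild Type replicate 2 and 7 without Wild Type replicate 1, when the median was 0.33. Without IL6 KO replicate 2 the median of this list was 0.45. Lipa, the lysosomal acid lipase, measured 11.66, 12.30 and 11.30 in IL6 KO, 10.96, 10.95 and 11.97 in sgp130Fc, and 10.17 and 10.46 in Wild Type fat, a difference of 1.20 ± 0.35 (limma adjusted p = 0.457). Of 20 resident macrophage genes, all 6 lay above at 1 and below at 2, and the median was -0.09. The resident list had 6 above and 2 below without Wild Type replicate 1, with a median of 0.08, and without Wild Type replicate 2, 2 lay above and 10 below with a median of -0.39. The mannose receptor Mrc1, a marker of alternative activation, differed by 0.43, and Il1rn, the IL-1 receptor antagonist, by 1.57. Tnfrsf11a, the receptor RANK for osteoclast formation, lay at 6.11 to 7.72 (median 7.28) in deficient fat and at 5.78 and 5.99 in Wild Type fat. The inflammatory genes Tnf, Ccl2 and Itgax differed by -0.10, 0.11 and 0.32, and their arms overlapped. Without IL6 KO replicate 2 the difference of Itgax was 0.10.

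The lysosomal list holds acid hydrolases and the proton pump of the lysosome. Of 23, 22 had a positive difference, all 6 deficient arrays lay above at 9 and below at 0, and the median was 0.36. Without Wild Type replicate 2 the count was 15. The cathepsin Ctsz differed by 0.56 and the hexosaminidase Hexa by 0.44, and neither passed (limma adjusted p = 0.502 for each). In the list for DNA replication and cell cycle, 18 of 20 differences were positive, with a median of 0.31, and all 6 arrays lay above at 3 genes and below at 1. The number above was 17 without Wild Type replicate 2, with a median of 0.56, and 5 without sgp130Fc replicate 2. Leaving out Wild Type replicate 1 gave a median of 0.10. Pcna, the sliding clamp of DNA replication, lay at 6.95 to 7.98 (median 7.45) in deficient fat and at 6.41 and 6.71 in Wild Type fat.

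Fat cell genes lay the other way. Of 23 measured genes of fat cell identity, all 6 deficient arrays lay below both Wild Type arrays at 10 and above at 0, and 21 had a negative difference, with a median of -0.62. The median was -1.05 in IL6 KO and -0.26 in sgp130Fc. IL6 KO replicate 2 had the lowest mean level, 8.66, and the other deficient arrays 9.88 to 10.43, against 10.63 and 10.60 on the Wild Type arrays. Without that array the median was -0.32.

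Retn, which encodes the hormone resistin, made by fat cells in mice, measured 4.99, 4.63 and 5.66 in IL6 KO, 5.64, 5.26 and 5.61 in sgp130Fc, and 7.28 and 6.80 in Wild Type fat, a difference of -1.74 ± 0.29 (limma adjusted p = 0.200). It had the widest gap of the list. Slc2a4, the insulin-regulated glucose transporter GLUT4, measured 7.49, 6.39 and 7.70 in IL6 KO, 8.22, 8.44 and 7.60 in sgp130Fc, and 8.92 and 8.56 in Wild Type fat. Adiponectin (Adipoq) lay at 12.15 to 13.55 (median 13.37), against 13.63 and 13.62. Leptin overlapped between the arms. Hormone-sensitive lipase (Lipe), the lipid droplet protein Cidea and retinol-binding protein Rbp4 differed by -1.05, -1.03 and -1.11, and none of these genes passed. Without IL6 KO replicate 2 the differences of these 3 genes were -0.71, -0.82 and -0.62, that of Adipoq, which was -0.46, became -0.26, and that of Lep, which was -0.32, became -0.13.

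Of 21 lipogenesis genes, 5 had all 6 deficient arrays below and 0 above, with a median of -0.51, and without Wild Type replicate 1 the count below was 12. Without IL6 KO replicate 2 the median was -0.26, and by genotype the median was -0.83 in IL6 KO and -0.19 in sgp130Fc. Fatty acid synthase (Fasn) measured 6.84, 6.23 and 7.55 in IL6 KO, 8.05, 8.07 and 7.81 in sgp130Fc, and 8.42 and 8.75 in Wild Type fat, a difference of -1.16 ± 0.46 (limma adjusted p = 0.499). Srebf1, the sterol-regulated activator of this pathway, differed by -0.71 and acetyl-CoA carboxylase (Acaca) by -0.64. Among 18 genes of lipolysis and lipid droplets all 6 lay below at 6, and among 18 of fatty acid oxidation at 3, with 0 above in each. Their medians of -0.39 and -0.37 were -0.16 and -0.18 without IL6 KO replicate 2, and that for lipolysis was -0.25 without Wild Type replicate 2. By genotype the lipolysis median was -0.74 in IL6 KO and -0.0 in sgp130Fc. That for fatty acid oxidation was -0.6 in IL6 KO and -0.03 in sgp130Fc, so neither list was clearly lower in sgp130Fc. The count for fatty acid oxidation was 5 without Wild Type replicate 1, 7 without Wild Type replicate 2 and 6 without sgp130Fc replicate 2. In the lysophospholipid and N-acylethanolamine list, where Gdpd3 is a member, 1 of 16 passed, lower. All 6 arrays lay below at 3 and above at 1, or at 6 and 3 without Wild Type replicate 1 and at 5 and 2 without Wild Type replicate 2. Its paralogue Gdpd1 lay on the other side, at 7.26 to 8.85 (median 8.04) in deficient fat and 7.11 on both Wild Type arrays, and did not pass (limma adjusted p = 0.488).

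All 19 endothelial genes measured had a negative difference, with a median of -0.49, and all 6 deficient arrays lay below at 5. The median was -0.88 in IL6 KO and -0.06 in sgp130Fc. Without Wild Type replicate 2 that count was 10 (52.6%, against 20.1% of all genes), and without IL6 KO replicate 2 the median was -0.28. Endothelial nitric oxide synthase (Nos3) measured 7.27, 5.82 and 7.58 in IL6 KO, 9.06, 8.74 and 8.61 in sgp130Fc, and 9.16 and 9.55 in Wild Type fat. The sgp130Fc arrays lay close to Wild Type and the IL6 KO arrays well below both, and the genotypes did not pass the test between them (limma adjusted p = 0.0615). Smooth muscle and pericyte genes had a median of -0.42 (-0.71 in IL6 KO and -0.05 in sgp130Fc), with 3 of 13 below on all 6 arrays, among them Acta2 (-0.90) and the pericyte gene Rgs5 (-1.03). That number was 5 without Wild Type replicate 1 and 7 without Wild Type replicate 2, and the list's median was -0.27 without IL6 KO replicate 2. Acta2 and Rgs5 differed by -0.69 and -0.8 without IL6 KO replicate 2. The fibroblast list had a median of 0.13, which was -0.01 without IL6 KO replicate 2 and 0.21 without Wild Type replicate 2.

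**Figure D3:**
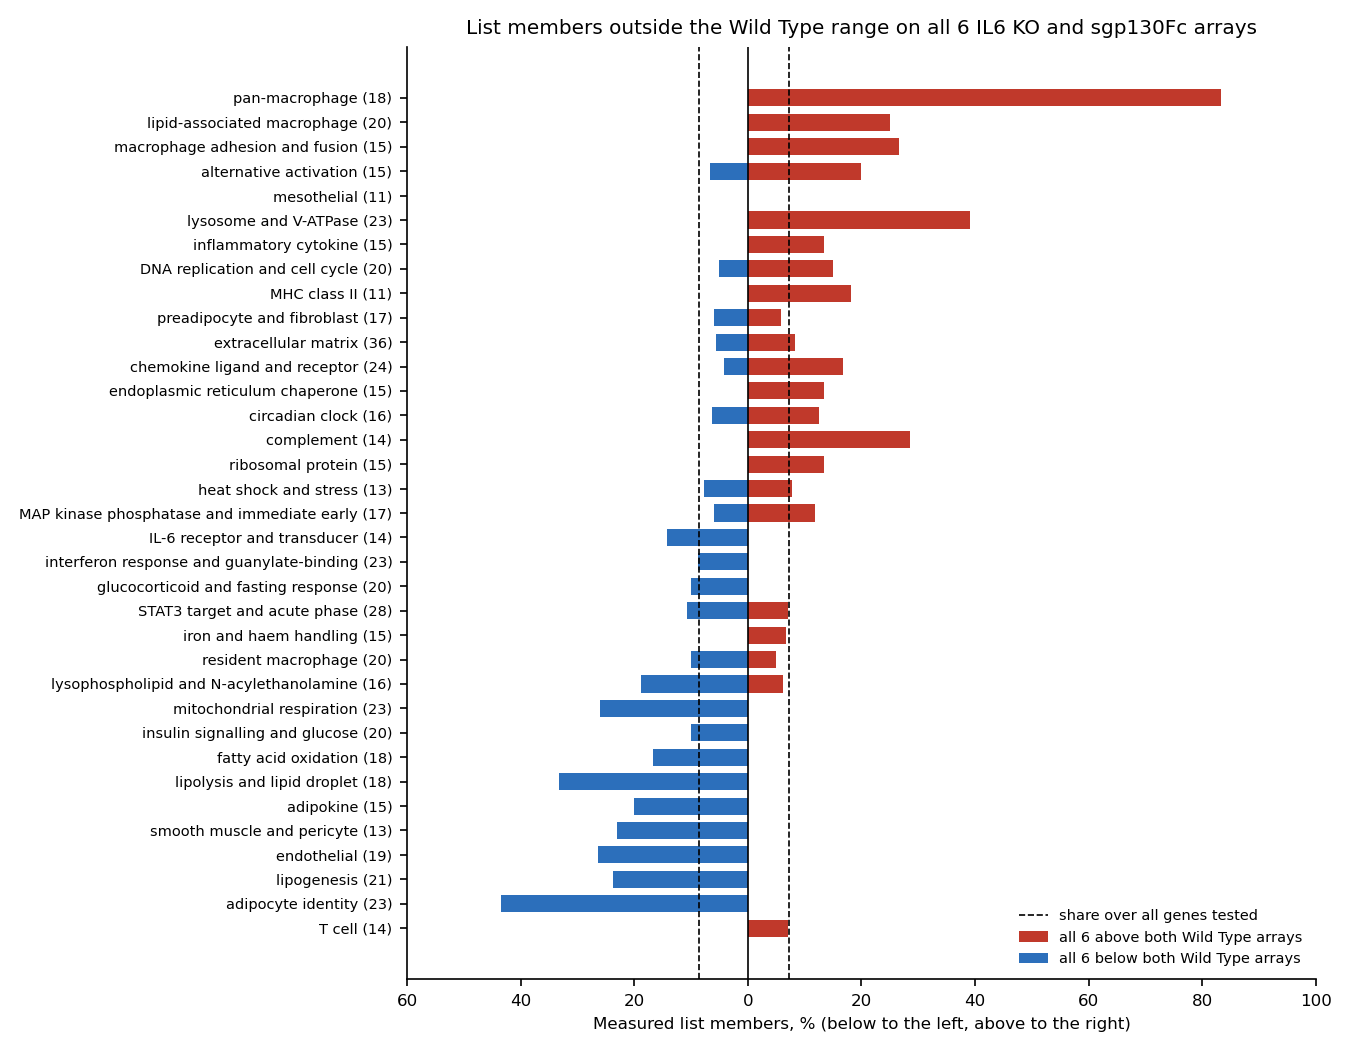
Share of measured list members (horizontal axis, %) at which all 6 deficient arrays lay above (red, right) or below (blue, left) both Wild Type arrays, for lists with at least 10 measured genes, in order of median difference, with the number measured in brackets. Dashed lines mark the shares over all genes, 7.28% above and 8.54% below. The macrophage list reached 83.3% above and the fat cell list 43.5% below.

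**Figure D4:**
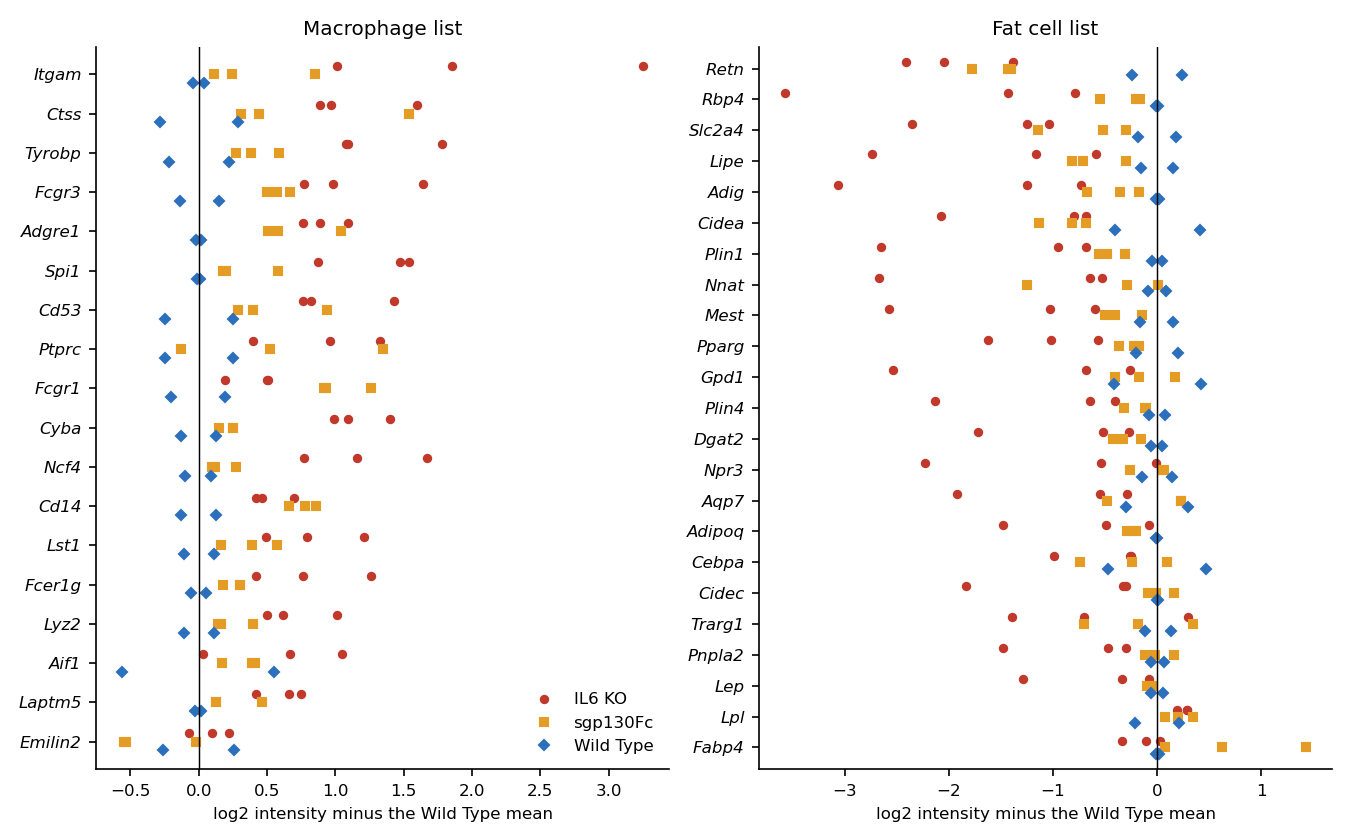
Log2 intensity minus the Wild Type mean (horizontal axis) of each measured macrophage gene (left) and fat cell gene (right) on the IL6 KO (red circles), sgp130Fc (orange squares) and Wild Type arrays (blue diamonds). Most macrophage points of both genotypes lay right of 0, and the IL6 KO circle farthest left in most fat cell rows is replicate 2, whose mean level over that list was 8.66.

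Genes of the IL-6 pathway itself had small pooled differences. Il6 lay at 5.17, 5.06 and 5.16 in IL6 KO, at 4.78, 4.62 and 4.46 in sgp130Fc, and at 4.40 and 4.47 in Wild Type fat, and it was above background on 2 arrays, both IL6 KO. The position of its probe relative to the deletion is not given in the sources used here, and the probe is no check of the genotype. Il6ra lay at 5.16 to 6.18 (median 5.65) in deficient fat and at 5.4 and 5.74 in Wild Type fat, and Il6st at 9.64 to 9.91 (median 9.70), against 9.82 and 9.76. Of 14 measured genes for receptors and transducers, 0 passed, all 6 deficient arrays lay below at 2 and above at 0, and the median was 0.01. With 1 array left out, 0 to 2 lay above (2 without Wild Type replicate 1) and 2 to 4 below (4 without sgp130Fc replicate 2), with medians of -0.06 to 0.04. Chosen after its values were seen, Stat5a, a transcription factor of cytokine receptors, lay at 7.34 to 7.79 (median 7.69) in deficient fat and at 8.27 and 8.22 in Wild Type fat, a difference of -0.63 that did not pass (limma adjusted p = 0.457). Among 28 STAT3 targets and acute-phase genes 0 passed, 2 lay above and 3 below on all 6 arrays, and the median was -0.04. These counts were 5 above and 6 below without Wild Type replicate 1, and 5 and 5 without Wild Type replicate 2. By genotype the median of this list was 0.21 in IL6 KO and -0.17 in sgp130Fc, on opposite sides of Wild Type. Saa3, an acute-phase protein of fat and macrophages, differed by 0.78 with overlapping arms.

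Genes at which the genotypes differed show what the pooled arm did not share. Between sgp130Fc and IL6 KO, 177 probes passed (1.25%; limma), and 10 of the 130 named genes were among them. Socs3, the feedback inhibitor that STAT3 induces, measured 6.70, 7.29 and 6.94 in sgp130Fc and 8.21, 8.32 and 8.56 in IL6 KO fat, with Wild Type at 7.67 and 8.09 between them. The difference was -1.38 (limma adjusted p = 0.0172), so that the pooled value of -0.21 averaged opposite sides of Wild Type. Per2, a clock repressor, measured 10.08, 10.33 and 10.32 in sgp130Fc and 7.33, 7.93 and 7.33 in IL6 KO fat, with Wild Type at 8.07 and 8.26 (difference 2.71, limma adjusted p = 0.000401). Of 16 clock genes, 2 lay above and 1, Nr1d1, below both Wild Type arrays on all 6 arrays, with a median of 0.10. Leaving out Wild Type replicate 2 gave 3 above, 3 below and a median of 0.19.

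Chil1, a chitinase-like protein of activated macrophages, was above background on the 3 sgp130Fc arrays (8.85, 7.51 and 8.31) and on 0 of 3 IL6 KO and 0 of 2 Wild Type arrays. Chil1 was at least 9.2-fold higher in sgp130Fc than in IL6 KO fat (limma adjusted p = 0.00156), and its levels in IL6 KO and Wild Type fat, all at background, have no order. It was tested through its sgp130Fc arrays alone, so the direction of this difference was set by the filter. Mmp12, the macrophage elastase, and Ctsk, the collagen-degrading cathepsin K, lay above both Wild Type arrays in each genotype and differed by -1.62 and -1.37 in sgp130Fc minus IL6 KO (limma adjusted p = 0.0473 and 0.038). Napepld, which makes N-acylethanolamines, measured 8.09, 7.69 and 7.57 in sgp130Fc and 6.52, 5.95 and 6.22 in IL6 KO fat, with Wild Type at 8.05 and 8.22. The smooth muscle myosin Myh11 was 1.17 higher in sgp130Fc than in IL6 KO.

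Erythroid genes, which mark red blood cells and their precursors, were among those that differed between the genotypes. Alas2, the erythroid enzyme of haem synthesis, measured 9.17, 9.85 and 9.26 in sgp130Fc and 6.41, 6.02 and 7.60 in IL6 KO fat, with Wild Type at 11.48 and 9.77 (difference 2.75, limma adjusted p = 0.0372). The near-identical beta-globin genes Hbb-bt and Hbb-b2 differed by 2.26 and 1.64 the same way. None of 8 measured erythroid genes had all 6 deficient arrays outside the Wild Type range, and the list's median of -0.84 was -1.59 in IL6 KO and -0.43 in sgp130Fc. The number below was 1 without Wild Type replicate 1, 4 without Wild Type replicate 2 and 3 without sgp130Fc replicate 2. Liver genes had a median of -0.72 over 9, which was 0.51 in IL6 KO and -2.0 in sgp130Fc, and 0.19 without Wild Type replicate 1 and -1.91 without Wild Type replicate 2, and Apoa1, a plasma lipoprotein gene, was highest on IL6 KO replicate 3 (10.12) and Wild Type replicate 1 (9.10).

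**Figure D5:**
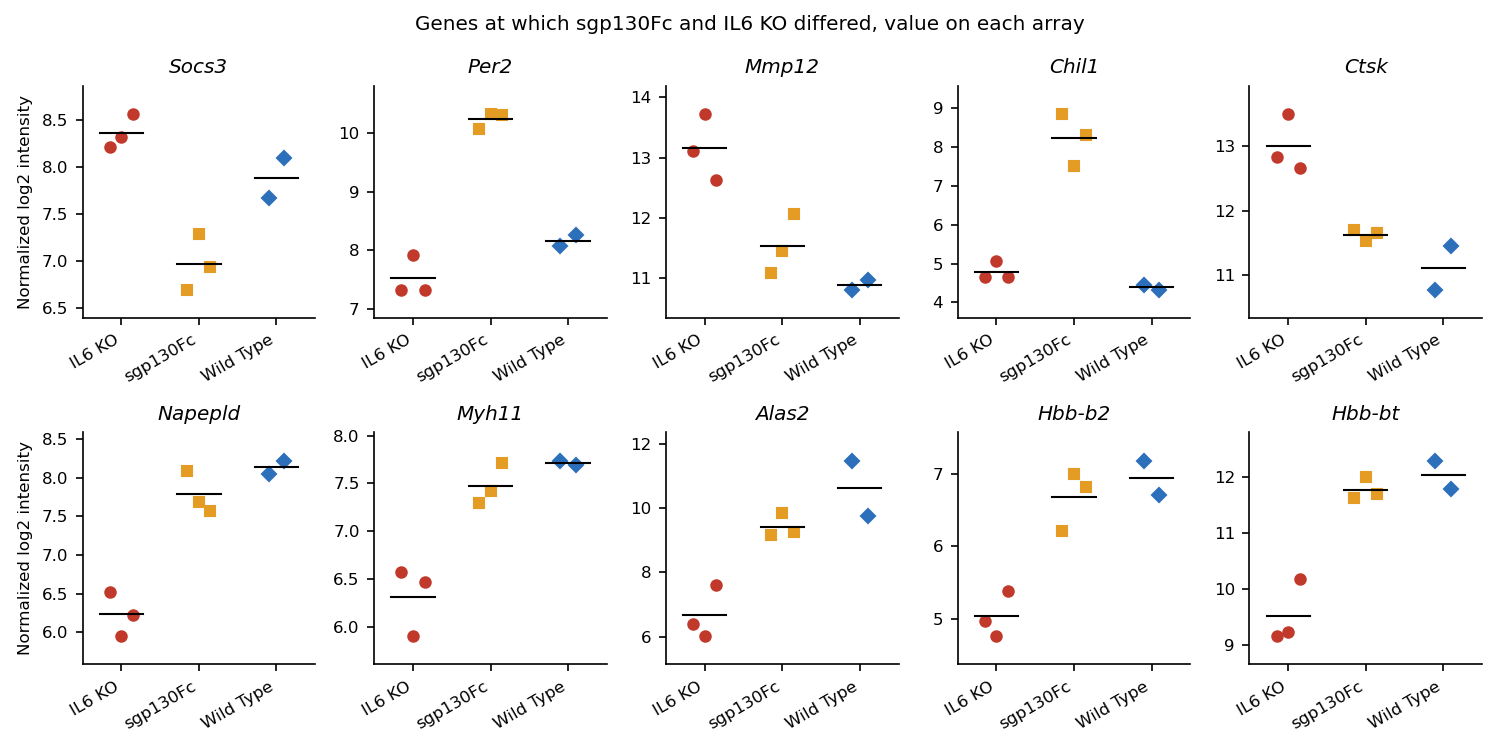
Normalized log2 intensity (vertical axis) of the 10 named genes that differed between sgp130Fc and IL6 KO, on each IL6 KO (red circles), sgp130Fc (orange squares) and Wild Type array (blue diamonds), with a line at each group's mean. Wild Type lay between the genotypes for Socs3 and Per2, and Chil1 was high on the sgp130Fc arrays only.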

How the data were processed

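Adipose RNA was hybridised to Illumina bead arrays, 1 sample per array. The deposited files hold, for 25697 probes, a linear intensity that the authors neither background-subtracted nor normalized, and a detection p-value against negative controls, per the file headers. The authors also deposited log2 values, and the submitters' processing notes name GenomeStudio and limma, with no version. Running neqc of limma on the intensities (background correction, then quantile normalization) gave values within 0.0548 of these log2 values. The log2 values were used as deposited. A detection p-value was assigned to an array where it fell with that array's intensity throughout.

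Probes with a detection p-value under 0.05 on at least 2 of 8 arrays were fitted with lmFit and eBayes of limma 3.58.1 (R 4.3.3), with both genotypes pooled in 1 arm and no genotype term (9.42 degrees of freedom, of which the prior gave 3.42), and tested on both sides with Benjamini-Hochberg adjustment over all 14141 probes at 0.05. The sgp130Fc minus IL6 KO contrast came from a fit with 3 groups. The brightest tested probe stood for a gene in the 52 lists. "At least" folds set the brighter group against the detection limit where a group was above background on no array. The scripts were tested on simulated data. Of the probes, 23978 had 1 gene symbol and 1719 had none, per the platform annotation, checked against RefSeq genes of GRCm38.p6, where 23962 identifiers matched.

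The named genes are Il6, Il6ra and Il6st, the 15 highest and 15 lowest genes among passing probes with non-overlapping arms, filled by smallest p, 4 members of smallest p of each list with a passing member or a median of at least 0.3 in size, and a fixed set (Fasn, Slc2a4, Adipoq, Lep, Saa3, Socs3, Tnf, Ccl2, Itgax, Adgre1, Per2, Gdpd3 and Gbp2b). Members and lists were chosen with earlier results of these data known. Alternatives covered the normalization, the offset, the detection filter, the intensity trend, array weights, the model terms, the averaging of probes and each array left out. Arrays were not paired by replicate number, and precision is limited by how many arrays there were, with a median standard error of 0.21 on the log2 scale.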

Additional observations from a re-analysis of the deposited data

Results flagged for a closer look

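On 17 named genes IL6 KO replicate 2 lay far from the other 5 arrays of the pooled arm, by Dixon's test for 1 extreme value, which chance passes in about 1 of 20 groups. It was the lowest of the 6 for the fat cell genes Lep (12.99), Adipoq (12.15), Cidea (4.95), Lipe (7.10), Rbp4 (6.76), Scd2 (7.12) and G0s2 (8.93). It was also the lowest for the endothelial genes Icam2 (7.98) and Egfl7 (10.33), for the smooth muscle and pericyte genes Acta2 (10.93) and Mcam (8.92), and for Amy2a5 (5.02) and Cela1 (7.91). It was the highest for Ms4a7 (8.97), a macrophage gene, and for the neutrophil genes S100a9 (10.98), Ltf (9.30) and Elane (6.07). S100a9 lay at 5.24 to 6.75 on the other deficient arrays and at 4.83 and 5.28 on the Wild Type arrays. Among the other flagged arrays, sgp130Fc replicate 2 was high for Gm525 (6.31), and sgp130Fc replicate 3 for Fn3krp (4.83) and Psmb9 (9.41).

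The genotypes differed in sgp130Fc minus IL6 KO (limma, adjusted p under 0.05) at 10 named genes: Socs3 (-1.38), Mmp12 (-1.62) and Ctsk (-1.37) lower in sgp130Fc, and Per2 (2.71), Chil1 (3.43, a fitted value with IL6 KO at background), Napepld (1.55), Myh11 (1.17), Alas2 (2.75), Hbb-b2 (1.64) and Hbb-bt (2.26) higher. Chil1 was tested through its sgp130Fc arrays alone, so its direction was set by the filter.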

How the results depend on the processing

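Gdpd3 passed under 20 of 20 other settings, Timmdc1 under 13 of 20, Gbp2b under 11 of 19, Kansl1l under 6 of 19 and Lsm12 under 4 of 20. The arms stayed apart at these genes, which could have failed only under another normalization, another offset or the averaging of probes. The other settings used the same values or fewer arrays, so they could not bring the arms together. The 5 passing probes (4 lower, 1 higher) became 2 (2 lower, 0 higher) without background correction, with an offset of 50 or with detection on all arrays. They became 3 (3 lower, 0 higher) with an intensity trend or genotype as a random block, 1 (1 lower, 0 higher) with no detection filter and 9 (8 lower, 1 higher) in the 3-group fit. With 1 array left out, 1 to 19 probes passed, 0 to 15 higher and 1 to 4 lower. All 6 arrays lay above at 1036 to 2732 probes and below at 1239 to 2830 with 1 array left out, and at 1366 and 1563 with no detection filter. The sgp130Fc minus IL6 KO count of 177 became 107 with no detection filter, 1735 with array weights and 24 to 495 with 1 array left out. The cause of these shifts was not tested. Deviations from the group means of same-numbered replicates of different groups had correlations of -0.353 to 0.18. The deviations of the 2 Wild Type arrays mirror each other, so these values cannot exclude a pairing of the samples by number. With the replicate number as a block, 1 probe passed (1 lower, 0 higher) in the pooled comparison and 79 between the genotypes. Only 2 Wild Type arrays were available, and low signal over background compresses differences. Leaving out 1 array moved a list median by more than 0.3 on the log2 scale in 22 cases. Without Wild Type replicate 1 the median was 0.10 for T-cell, 0.19 for liver and -0.23 for lymph node stroma genes. Without Wild Type replicate 2 it was -0.19 for mesothelial, -0.39 for resident macrophage and -0.32 for interferon response genes. Without IL6 KO replicate 2 it was -0.32 for fat cell genes.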

Other observations

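Mesothelial genes, which mark the lining of abdominal organs and fat pads, had a positive difference at 11 of 11 measured genes, with 0 above and 0 below both Wild Type arrays on all 6 deficient arrays, and 9 above without Wild Type replicate 1. Upk3b, a uroplakin of mesothelium, measured 9.04, 8.48 and 8.82 in IL6 KO, 7.38, 7.45 and 8.50 in sgp130Fc, and 8.56 and 5.89 in Wild Type fat. The list's median of 0.42 was 0.89 without Wild Type replicate 1 and -0.19 without Wild Type replicate 2. Of 14 complement genes, 4 had all 6 deficient arrays above both Wild Type arrays and 0 below, with a median of 0.09 (0.01 without Wild Type replicate 1 and 0.23 without Wild Type replicate 2), against 7.28% and 8.54% of all genes. Among the genes above, C5ar1 was above background on 0 of 2 Wild Type arrays. It was tested through its deficient arrays alone, so its place among the 4 was set by the filter. Of 15 ribosomal protein genes the median was 0.07, with 2 above and 0 below, or 6 above without Wild Type replicate 2.

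The muscle marker Ckm was above background on 0 of 8 arrays, and Adam7, Lcn5 and Prm1, markers of epididymis and germ cells, on 1 each.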
